A study of Mus musculus with 16 samples.

Results

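The collagen genes of the mouse medial prefrontal cortex (PFC) were described in single-nucleus RNA-Seq data, over cell classes, cortical layers and 4 groups of mice. A gene belonged to the set when its symbol in the count table was Col, a number, the letter a and a number, such as Col12a1, and 44 of the 19999 genes of the table did. The rule reads only the symbol. The 44 genes held 100199 of the 216742276 unique molecular identifiers (UMIs) counted in 114512 nuclei.

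The study asked how repeated alcohol intoxication changes transcription in the PFC of mice with a genetic susceptibility to Alzheimer's disease. All 16 mice were male, with 4 in each group, and the labels give an age of 22 weeks, where the methods of the study give a range that starts there. The WT mice, controls and exposed, were B6;129 mice. The 3xTg-AD mice, controls and exposed, carried, among their alleles, mutant human APP and tau transgenes, which a Thy1 promoter drives in neurons. The 2 exposed groups breathed alcohol vapor in repeated cycles of chronic intermittent exposure, and "exposed" always means this. The study took the tissue days after the last vapor exposure and after testing in a water maze, so no group was intoxicated at that time. All 4 groups, the controls included, received injections of pyrazole, an inhibitor of alcohol dehydrogenase, with ethanol before vapor or with saline before air. Because 3xTg-AD is a mouse line of its own, its transgenes and any other genetic difference from the WT mice cannot be told apart. Nothing in the labels states more about how the 4 mice of a group relate to each other, so the p-values measure the spread between these mice.

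Collagens are triple-helical proteins of the extracellular matrix, built from alpha chains that are each encoded by a gene of their own. Fibrillar collagens form the fibrils of connective tissue, type IV collagen forms the network of basement membranes around blood vessels and below the pia, and type VI collagen forms beaded filaments. Fibril-associated collagens (FACITs) bind to the surface of fibrils, and transmembrane collagens stay in the plasma membrane or are shed from it. In the brain, most collagen protein is known from the meninges and the vessel wall, while several neurons make collagens that act at synapses or mark a cell type.

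Between 4955 and 9096 nuclei and between 9622031 and 17544364 UMIs came from each mouse. Nuclei were clustered without the collagen genes and named from marker genes, which gave names to 64195 nuclei (56.1%) in 21 classes and left 50317 unnamed. In 19 classes at least 8 mice had at least 10 nuclei, and levels are given there as CPM, the UMIs of a gene scaled by all UMIs of its class in the mouse, as mean ± SD over mice. Those 19 classes were 7 glutamatergic, 5 GABAergic and 7 non-neuronal classes. In each of them most of the listed markers stood 1.5-fold or more above the other named nuclei. These were 6 of 10 in L5 IT, 5 of 7 in L6 IT with 1 marker at 0, and at least 7 of 8 in the others. The naming itself asked for at least 3 raised markers, so this is partly given by it. WT control mouse 36 had 2 nuclei of the vascular leptomeningeal class (VLMC) and gave no level there, and 1019 of the 1152 nuclei of the Meis2 class came from WT control 27. Between 1.79% and 2.90% of UMIs belonged to Gm42418, a ribosomal RNA-like transcript, in 3xTg-AD control 12 and WT controls 26 and 27, against 0.206% to 0.425% in the other 13 mice. Libraries shared between 3 and 27 cell barcodes per pair over the 120 pairs, and no 2 libraries agreed within sampling noise. All collagens together held 652 CPM of the UMIs of WT control mouse 36, against 344 to 542 CPM in the other 15 mice. Where a mouse had any UMI of a collagen, at least 5 of its nuclei did. A mouse at 0 over all its nuclei may thus have held a few such nuclei before the files were made.

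The start sites of 4 collagen genes are shown because their levels carry the results below: the paired type IV genes Col4a1 and Col4a2, the VLMC gene Col1a2, and Col24a1, whose level in L5/6 NP neurons differed between groups. The windows come from RefSeq (build GRCm38.p6) and run 5′ to 3′ on the strand of the gene from 250 bases before to 50 bases after its start. Capitals mark a CCAAT motif (CCAAT or ATTGG on the strand shown) or a GC box (GGGCGG or CCGCCC). Col1a2 lies on the plus strand (chr6:4505368-4505667), Col24a1 on the plus strand (chr3:145292222-145292521), Col4a2 on the plus strand (chr8:11312555-11312854) and Col4a1 on the minus strand (chr8:11312777-11313076).
Col4a2: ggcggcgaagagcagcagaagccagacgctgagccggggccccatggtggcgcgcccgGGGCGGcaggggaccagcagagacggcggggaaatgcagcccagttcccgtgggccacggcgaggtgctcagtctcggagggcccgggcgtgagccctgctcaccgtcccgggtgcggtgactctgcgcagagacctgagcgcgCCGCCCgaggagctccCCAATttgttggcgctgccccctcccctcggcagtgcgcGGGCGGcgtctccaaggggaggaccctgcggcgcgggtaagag
Col4a1: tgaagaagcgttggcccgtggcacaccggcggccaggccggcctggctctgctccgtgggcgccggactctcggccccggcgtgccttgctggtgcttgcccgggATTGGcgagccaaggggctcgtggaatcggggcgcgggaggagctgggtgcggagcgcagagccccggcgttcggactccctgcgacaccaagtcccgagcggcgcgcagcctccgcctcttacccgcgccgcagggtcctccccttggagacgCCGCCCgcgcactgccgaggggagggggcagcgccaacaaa
Col1a2: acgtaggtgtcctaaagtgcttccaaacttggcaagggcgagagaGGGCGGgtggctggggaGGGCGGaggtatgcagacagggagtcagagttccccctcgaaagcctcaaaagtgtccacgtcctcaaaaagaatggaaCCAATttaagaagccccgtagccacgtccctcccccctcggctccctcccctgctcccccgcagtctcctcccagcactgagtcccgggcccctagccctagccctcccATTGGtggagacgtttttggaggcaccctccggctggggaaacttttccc
Col24a1: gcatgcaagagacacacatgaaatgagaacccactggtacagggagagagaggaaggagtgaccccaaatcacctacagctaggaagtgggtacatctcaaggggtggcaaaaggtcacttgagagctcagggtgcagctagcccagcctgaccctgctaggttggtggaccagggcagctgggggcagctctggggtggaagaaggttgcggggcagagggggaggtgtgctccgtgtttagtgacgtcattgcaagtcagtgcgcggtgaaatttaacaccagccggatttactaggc
Col4a1 and Col4a2 run away from each other, and their windows share 78 bases, so the start of either gene lies within the window of the other. Col4a2 held 1 CCAAT motif and 3 GC boxes, Col4a1 held 1 of each, Col1a2 held 2 of each, and the window of Col24a1 held neither sequence. Over 32851 RefSeq windows of this length, 37.4% held a CCAAT motif and 35.7% a GC box on either strand. Of the 38 windows with a collagen symbol, 13 held a CCAAT motif, 23 a GC box, 5 a TATA box (TATAAA, 13.6% of all windows) and 0 an E box (CACGTG, 7.15% of all windows). A CCAAT match and a GC box can share bases, and a match describes these letters only. RefSeq windows were matched for 35 of the 44 genes.

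Collagen transcripts were found in neuronal and non-neuronal classes, and most genes were uneven over them. The highest level of a gene lay in a non-neuronal class for 23 of the 44 genes, in a GABAergic class for 11 and in a glutamatergic class for 10. VLMCs, the fibroblast-like cells of the meninges and of the sheath of large vessels, were the highest class of 14 genes. Of these, Col4a3 and Col10a1 rest on 1 UMI each in VLMCs, and Col9a2 was highest there in only 1 of 4 other settings. Oligodendrocyte progenitor cells (OPCs) were the highest class of 5, as were the Sncg and the Vip interneurons. In Vip, Col2a1, Col6a6 and Col20a1 rest on 13, 10 and 17 UMIs and lay above the next class in 7, 3 and 7 of 16 mice. In Sncg, Col6a5 rests on 16 UMIs and lay above the next class in 7 of 16 mice. The unevenness of a gene over the 19 classes was expressed as the index tau, which is 0 for equal levels and 1 for a gene in a single class. Among genes with at least 200 UMIs in the classes, the median tau was 0.870 for the 33 collagens and 0.498 for all 15056 genes, and 33 of the 33 collagens lay above the median of all genes. With at least 1000 UMIs the medians were 0.873 for 16 collagens and 0.433 for 11341 genes. These levels are a description over classes without a test, and levels of different genes cannot be ranked against each other because their lengths differ.

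**Figure D1:**
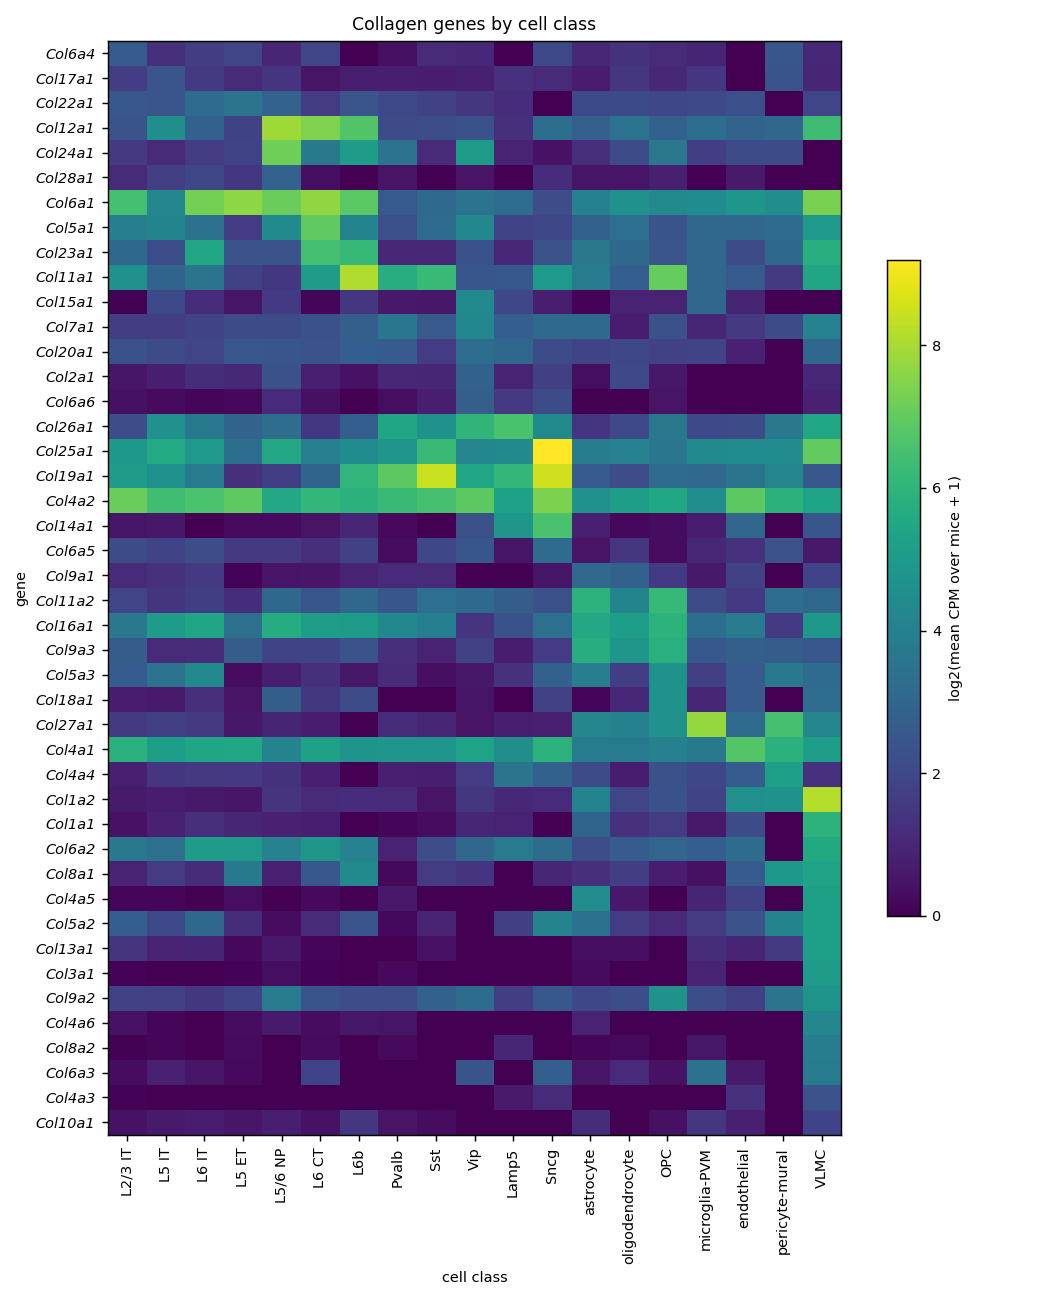
Heatmap of the mean level of the 44 collagen genes (rows, ordered by the class of their highest level) in 19 cell classes (columns), as log2 of the mean CPM over mice plus 1. Most genes are bright in 1 or a few classes, such as Col25a1 in Sncg interneurons (588 CPM) and Col1a2 in VLMCs (291 CPM), while Col4a2 is bright in nearly every column.

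The 11 fibrillar collagens had their highest levels in meningeal, neuronal or glial classes. Col1a2, a chain of type I collagen, the main collagen of connective tissue, stood at 175, 292 and 432 CPM in VLMCs (lowest, median and highest of 15 mice). Its next class, pericytes and mural cells, reached 24.7 ± 27.8 CPM, and VLMCs lay above it in 11 of the 11 mice with both classes. A UMI of Col1a2 was found in 27.6% of VLMC nuclei (median 1088 UMIs per nucleus) and in 0.146% of L2/3 IT neurons (median 2485 UMIs), which serve here as a class without the gene. Col1a1, the partner chain of type I collagen, stood at 61.6 ± 44.1 CPM in VLMCs and at 6.82 CPM in astrocytes, and VLMCs lay above astrocytes in 12 of 15 mice. Col3a1, the chain of type III collagen, was nearly limited to VLMCs at 32.1 ± 38.9 CPM, but 8 of 15 mice had no UMI of it there. Col5a2, a chain of type V collagen, which regulates fibril diameter, was also highest in VLMCs at 36.2 ± 29.9 CPM.

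Among the neuronal fibrillar collagens, Col5a1 and Col24a1 were highest in deep layers. Col5a1, another chain of type V collagen, stood at 122 ± 37.2 CPM in corticothalamic neurons of layer 6 (L6 CT) and at 30.2 CPM in VLMCs, and L6 CT lay higher in 15 of 15 mice. Col24a1, a fibrillar collagen known from bone and developing cortex, stood at 143 ± 60.6 CPM in the near-projecting neurons of layers 5 and 6 (L5/6 NP) and at 32.8 CPM in L6b, and L5/6 NP lay higher in 12 of 12 mice. Its level was 31.7 CPM in Vip interneurons and at most 12.2 CPM in every other class. Col11a1, a chain of type XI collagen, was spread over L6b (272 ± 295 CPM), OPCs (129.5 ± 36.9 CPM), Sst interneurons (75.3 ± 76.1 CPM) and Pvalb interneurons (51.8 ± 39.1 CPM). Its medians in L6b were 480.0 CPM in WT controls, 557 CPM in exposed WT mice, 14.2 CPM in 3xTg-AD controls and 13.4 CPM in exposed 3xTg-AD mice, over 2 to 4 mice a group. The WT mice were high there except 1 exposed mouse at 16.96 CPM, all 3xTg-AD mice were low, and the gene was not tested in that class. OPCs stood between 76.04 and 196 CPM in the 16 mice and L6b at no more than 22.8 CPM in any 3xTg-AD mouse, so L6b comes first for the pooled mean and the WT medians but not in 3xTg-AD mice. OPCs lay below L6b in 6 of the 12 mice with both. Of the other glutamatergic classes, L6 CT held 31.999 ± 52.8 CPM of Col11a1 and L2/3 IT 25.6 ± 23.7 CPM, against 1.84 to 10.7 CPM in the L5 IT, L5 ET, L5/6 NP and L6 IT classes.

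Of the remaining fibrillar genes, 3 were highest in glia. Col27a1, a fibrillar collagen of cartilage, marked microglia and perivascular macrophages (microglia-PVM) at 131, 231 and 338 CPM (lowest, median and highest of 16 mice), and its next class, pericytes and mural cells, lay lower in 11 of 12 mice at 88.7 ± 111 CPM. Neurons held at most 2.38 CPM of Col27a1. Col11a2, the second chain of type XI collagen, stood at 71.2 ± 22.9 CPM in OPCs and 60.9 ± 18.2 CPM in astrocytes, with OPCs higher in 10 of 16 mice, so these neighbours overlapped. Col5a3 peaked in OPCs at 25.4 ± 15.2 CPM, and Col2a1, the main collagen of cartilage, was highest in Vip interneurons at 6.24 CPM.

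Type IV collagen of the basement membrane was not limited to vessels in these nuclei. Col4a1 was highest in endothelial cells at 105 ± 45.7 CPM, above the Sncg interneurons (60.2 ± 37.6 CPM) in 12 of 16 mice. It also reached 57.5 ± 16.3 CPM in L2/3 IT neurons, the intratelencephalic neurons of the upper layers, against 12.2 CPM in microglia-PVM. Col4a2, which forms the common network together with Col4a1, stood at 167 ± 61.9 CPM in Sncg interneurons, 135 ± 31.1 CPM in L2/3 IT neurons, 119 ± 27.96 CPM in the extratelencephalic neurons of layer 5 (L5 ET) and 117 ± 45.5 CPM in endothelial cells. The Sncg class lay above L2/3 IT in only 11 of 16 mice, so the first classes in this order overlapped. Over the 19 classes the log2 levels of both genes followed each other with Pearson's r = 0.827, a description over classes that share libraries.

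The other type IV chains were sparse. Col4a5 and Col4a6, which lie head to head on the X chromosome, were highest in VLMCs at 36.2 ± 25.5 CPM and 18.1 ± 30.7 CPM, and Col4a5 also stood at 21.7 ± 6.36 CPM in astrocytes. Col4a4 had its highest mean in pericytes and mural cells (36.6 ± 50.7 CPM) with no UMI in 7 of 12 mice, and Col4a3 had UMIs in only 1 mouse of the series.

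Type VI collagen was split between glutamatergic neurons and the meninges. Col6a1 stood at 206 ± 41.95 CPM in L6 CT neurons and 198 ± 47.9 CPM in L5 ET neurons, and the former lay higher in only 9 of 16 mice. L2/3 IT neurons held 86.1 ± 47.8 CPM. Interneurons of every class held at most 10.4 CPM of it. Col6a2, its obligate partner chain, was highest in VLMCs at 47.4 ± 33.4 CPM and next in L6 IT neurons at 32.04 ± 12.1 CPM. Col6a3, the chain that completes the common type VI molecule, reached 13.3 ± 18.8 CPM in VLMCs and 9.998 ± 8.23 CPM in microglia-PVM, and stayed at or below 2.61 CPM in glutamatergic classes. Col6a4, Col6a5 and Col6a6, which may replace Col6a3 in the molecule, were low, with highest means of 5.23 CPM in L2/3 IT neurons, 8.33 CPM in Sncg interneurons and 5.84 CPM in Vip interneurons.

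The hexagonal network collagens Col8a1 and Col8a2 were highest in VLMCs at 38.03 ± 40.5 CPM and 13.6 ± 20.6 CPM, and Col8a1 also reached 28.97 ± 48.9 CPM in pericytes and mural cells, 19.6 ± 36.4 CPM in L6b and 12.1 ± 4.87 CPM in L5 ET neurons. VLMCs lay above pericytes and mural cells in only 6 of 11 mice for Col8a1, and the latter were its highest class without the 3 mice high in Gm42418. Col10a1, the collagen of growth plate cartilage, stayed at or below 2.62 CPM. Col7a1, which builds the anchoring fibrils of skin, stood at 18.5 ± 9.80 CPM in Vip interneurons, 15.99 ± 31.6 CPM in VLMCs and 11.3 ± 5.60 CPM in Pvalb interneurons.

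The FACITs divided interneurons, deep layers and glia. Col19a1, which is known to act in synapse formation by interneurons, stood at 109.7, 366 and 778 CPM in Sncg interneurons and at 229, 329 and 491 CPM in Sst interneurons (lowest, median and highest of 16 mice). Pvalb interneurons reached 117 ± 29.96 CPM, and L5 ET neurons held 1.44 CPM. Sncg and Sst could not be ordered by this gene, because the former lay higher in 10 of 16 mice. Col14a1, which modifies fibril growth, marked Sncg interneurons at 93.8 ± 58.2 CPM against 28.1 ± 29.5 CPM in Lamp5 interneurons, and lay higher there in 13 of 16 mice, although it stood at 14.1 CPM in Sncg when nuclei took their class from their own marker UMIs.

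Col12a1, a FACIT of tendon and of bone, marked deep neurons at 116, 225 and 362 CPM in L5/6 NP and 63.5, 197 and 283 CPM in L6 CT (lowest, median and highest of 16 mice), with L5/6 NP higher in 12 of 16. L2/3 IT neurons held 4.17 ± 2.47 CPM of it. The chains of type IX collagen, a FACIT of cartilage, were mostly glial. Col9a3 stood at 56.3 ± 26.5 CPM in OPCs, 52.3 ± 12.01 CPM in astrocytes and 27.99 ± 15.3 CPM in oligodendrocytes, and Col9a1 at 7.93 ± 4.54 CPM in astrocytes. Col9a2 reached 26.2 ± 18.5 CPM in VLMCs and 24.7 ± 9.55 CPM in OPCs. Col16a1 was broad, with 61.3 ± 15.4 CPM in OPCs, 50.9 ± 24.5 CPM in L5/6 NP neurons and 1.64 CPM in Vip interneurons, its lowest class. Col22a1 was highest in L5 ET neurons at 10.7 ± 4.35 CPM, and Col20a1 in Vip interneurons at 9.12 ± 10.2 CPM.

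Among the transmembrane collagens, Col25a1, whose shed ectodomain is known as a component of amyloid plaques, stood at 219, 546 and 1071 CPM in Sncg interneurons (lowest, median and highest of 16 mice). Of the 19 classes with a level, VLMCs came next at 125 ± 72.8 CPM and lay lower in 15 of 15 mice. Col23a1 stood at 86.7 ± 37.1 CPM in L6 CT neurons, 69.9 ± 55.9 CPM in L6b and 45.2 ± 26.4 CPM in L6 IT neurons, and at most 7.44 CPM in the upper and layer 5 classes. Col13a1, which organizes the neuromuscular junction, was highest in VLMCs at 36.03 ± 26.98 CPM, and Col17a1, a collagen of hemidesmosomes, stayed at 4.41 CPM in its highest class, L5 IT. The multiplexins, whose fragments include endostatin, were sparse. Col15a1 reached 19.6 ± 19.1 CPM in Vip interneurons and Col18a1 24.7 ± 11.1 CPM in OPCs. Col26a1 stood at 93.7 ± 38.8 CPM in Lamp5 and 63.3 ± 26.05 CPM in Vip interneurons, and Col28a1 at 6.47 ± 6.74 CPM in L5/6 NP neurons.

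Along the cortical layers, Col12a1, Col24a1, Col5a1 and Col23a1 had their highest levels among glutamatergic classes in 1 or more deep classes, but not in all of them. They were not the only such collagens, since Col11a1 was highest in L6b and Col6a1 in L6 CT. Col12a1 went from 4.17 CPM in L2/3 IT to 23.1 CPM in L5 IT, 234 CPM in L5/6 NP, 170.2 CPM in L6 CT and 104 CPM in L6b, but it stood at 6.23 CPM in L6 IT and 2.46 CPM in L5 ET. The gene thus split neighbouring classes of the same layer. Col24a1 stood at most at 2.70 CPM in the IT and ET classes, and Col5a1 at most at 19.5 CPM in the glutamatergic classes outside L6 CT, with 14.3 CPM in L2/3 IT against 9.68 CPM in L6 IT and 2.12 CPM in L5 ET. Col23a1 was low down to layer 5 and higher in L6 IT, L6 CT and L6b. Col6a1 was low in L5 IT alone among glutamatergic classes (17.2 ± 8.76 CPM), while Col4a2 was highest in L2/3 IT and lowest in L5/6 NP (45.7 ± 16.01 CPM).

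**Figure D2:**
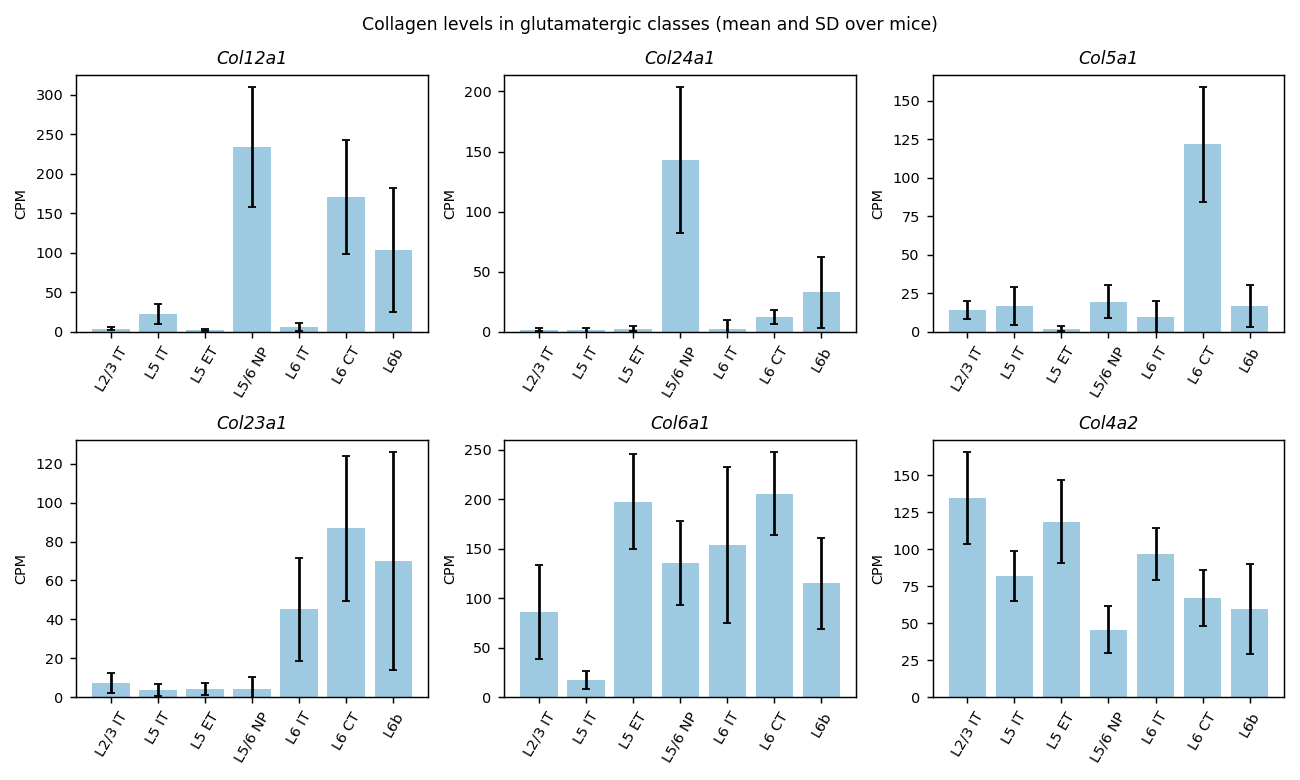
Mean level (CPM) of 6 collagens in 7 glutamatergic classes from the upper to the deep layers. Error bars are 1 SD over 16 mice (12 for L6b), cut at 0 where they would pass below it. Col24a1 and Col5a1 are each high in a single class, Col12a1 is high in L5/6 NP, L6 CT and L6b, and Col4a2 is present in all 7.

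VLMCs were the class with the most collagens. Besides the genes above, Col25a1, Col6a1, Col12a1, Col23a1 and Col11a1 were counted in VLMCs at 125, 160.3, 80.1, 54.8 and 42.3 CPM, although their highest class was a neuron. Too few VLMC nuclei were left for a level once nuclei with markers of another broad class were taken out. The part of transcripts from other cells in these 5 levels was not tested. Of the 14 genes highest in VLMCs, only Col1a2 had UMIs there in all 15 mice. By group its medians in VLMCs were 244 CPM in WT controls, 248 CPM in exposed WT mice, 364 CPM in 3xTg-AD controls and 305 CPM in exposed 3xTg-AD mice. Those of Col1a1 were 60.9 CPM in WT controls, 80.4 CPM in exposed WT mice, 0 CPM in 3xTg-AD controls and 79.5 CPM in exposed 3xTg-AD mice. The class had 2 to 82 nuclei per mouse. Over all nuclei, Col1a1 had UMIs in every mouse, in at least 7 nuclei of each, and the cause of its 0 values in VLMCs was not tested. Some genes had no UMI in any nucleus of a mouse. For these, low depth and nuclei left out before the files were made cannot be told apart.

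**Figure D3:**
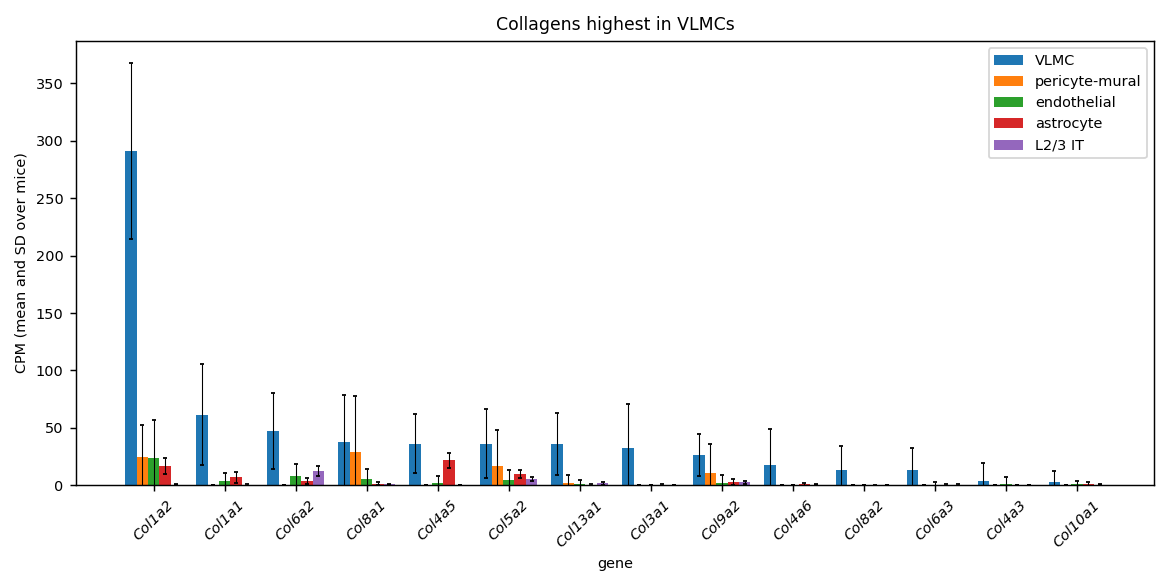
Mean level (CPM, error bars 1 SD over mice) of the 14 collagens whose highest class was VLMC, in VLMCs, pericytes and mural cells, endothelial cells, astrocytes and L2/3 IT neurons. Col1a2 stands at 291 CPM in VLMCs and at most 24.7 CPM in the other 4 classes, and the error bars of most other genes overlap between VLMCs and their next class.

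A small class of 112 nuclei carried the markers of Sst Chodl neurons, the long-range projecting Sst cells, and was summed over all mice because only 2 mice had 10 nuclei. Its 233 UMIs of Col25a1 gave 916 CPM (95% exact Poisson interval 802 to 1041) and its 185 UMIs of Col11a1 gave 727 CPM (626 to 840). In the other Sst interneurons the summed levels were 73.5 CPM (64.9 to 82.9) and 70.7 CPM (62.3 to 79.98), so both genes stood apart within the Sst family beyond counting error. Col19a1 went the other way, at 58.9 CPM (32.99 to 97.2) in Sst Chodl and 341 CPM (322 to 361) in Sst. The intervals cover counting error only and say nothing about the spread between mice. Sst Chodl had no level in the order of classes above. Its summed levels of Col25a1 and Col11a1 were higher than the mean levels of the classes named highest there, Sncg (588 CPM) and L6b (272 CPM).

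Genes with a like pattern over the 19 classes were found for 6 collagens by Pearson's r of the log2 level, a description without a p. Col24a1 was most like Xpr1 (r = 0.803), Sema5b (0.792) and Pcdh17 (0.771), and Col12a1 was most like Rai14 (0.860), Pamr1 (0.854) and Hcrtr1 (0.851). For Col5a1 the list held Gm10260 (0.768), Col12a1 (0.758) and Nptx1 (0.730). Col1a2 was followed by Zic2 (0.963), Zic5 (0.956) and Fbln1 (0.956), which were also highest in VLMCs, and Col27a1 by Ifi30 (0.942), Cdk11b (0.925) and Pld1 (0.916), which were also highest in microglia-PVM. Col19a1 was most like Lurap1l (0.826), 4930488N15Rik (0.817) and Bend4 (0.810). Among collagen pairs, r was 0.801 for Col1a1 with Col1a2, 0.779 for Col4a5 with Col4a6 and 0.704 for Col6a1 with Col6a2.

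The highest class held up for most genes when the nuclei were chosen otherwise. It was the same for 44 of 44 genes in nuclei with at least 500 genes and at most 5% mitochondrial UMIs. That setting left the levels nearly unchanged (588 CPM of Col25a1 in Sncg interneurons in both), so it could hardly move a highest class. Without the 3 mice high in Gm42418 the highest class was the same for 42 genes. When each nucleus took its class from its own marker UMIs instead of its cluster, the highest class was the same for 31 of 44. In that setting the level in the original class was more than 1.5 times lower for 28 of the 44 and more than 1.5 times higher for 0. In Sncg interneurons Col19a1 stood there at 76.1 CPM and Col25a1 at 131 CPM, Col26a1 stood at 33.8 CPM in Lamp5 interneurons and Col11a1 at 77.3 CPM in L6b. Col25a1 and Col11a1 were highest in Sst Chodl (138 and 112 CPM), Col19a1 in Sst (122 CPM) and Col4a2 in endothelial cells (121 CPM), and Col6a1 was highest in L6 IT (170.1 CPM). Col1a2 was still highest in VLMCs there, at 142 CPM. Without nuclei that carried markers of another broad class, VLMCs, endothelial cells and pericytes had too few nuclei, and the highest class was the same for 25 of the 28 genes whose class was left.

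The 4 groups were compared within each class, on UMI counts summed per mouse. A collagen entered a class only where its counts passed the filter of edgeR, which 25 of the 44 genes did in at least 1 class. They gave 101 tests of a gene in a class over 16 classes. The other 19, not tested in any class, were Col1a1, Col2a1, Col3a1, Col4a3, Col4a4, Col4a6, Col6a3, Col6a6, Col7a1, Col8a2, Col9a1, Col9a2, Col10a1, Col13a1, Col15a1, Col17a1, Col18a1, Col20a1 and Col28a1. Adjusted p-values are from edgeR's quasi-likelihood test with Benjamini-Hochberg adjustment over all genes of the class and contrast, and a call means an adjusted p no higher than 0.05. Fewer nuclei with a transcript and less of it per nucleus cannot be told apart in such sums. Values per mouse are given in the order of mice 26, 27, 28 and 36 (WT controls), 6, 7, 17 and 18 (exposed WT), 12, 13, 14 and 21 (3xTg-AD controls) and 4, 31, 33 and 34 (exposed 3xTg-AD). The contrasts share mice, so their values are set side by side and not counted as separate support.

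Exposed 3xTg-AD mice were compared with WT controls to set both factors against neither. Of the 101 collagen tests, 5 were called and all 5 were lower, where 1.09% of all 112665 tests were called, 536 higher and 695 lower. The median log2 fold change was -0.27 over the 101 collagen tests and -0.0021 over all tests, and 76 of the 101 were below 0, where 49.7% of all tests were above 0. Without WT control mouse 36, the mouse with the highest total of collagen, the median was -0.19 with 72 of 107 tests below 0, and it ran from -0.35 to -0.23 without any other mouse. An unadjusted p under 0.05 was found in 31 collagen tests and in 12.2% of all tests, and DESeq2 called 7 collagen tests. The 5 were Col24a1 in L5/6 NP neurons, Col5a1 in L6 CT neurons, Col11a1 and Col4a2 in Pvalb interneurons and Col6a5 in L2/3 IT neurons.

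**Figure D4:**
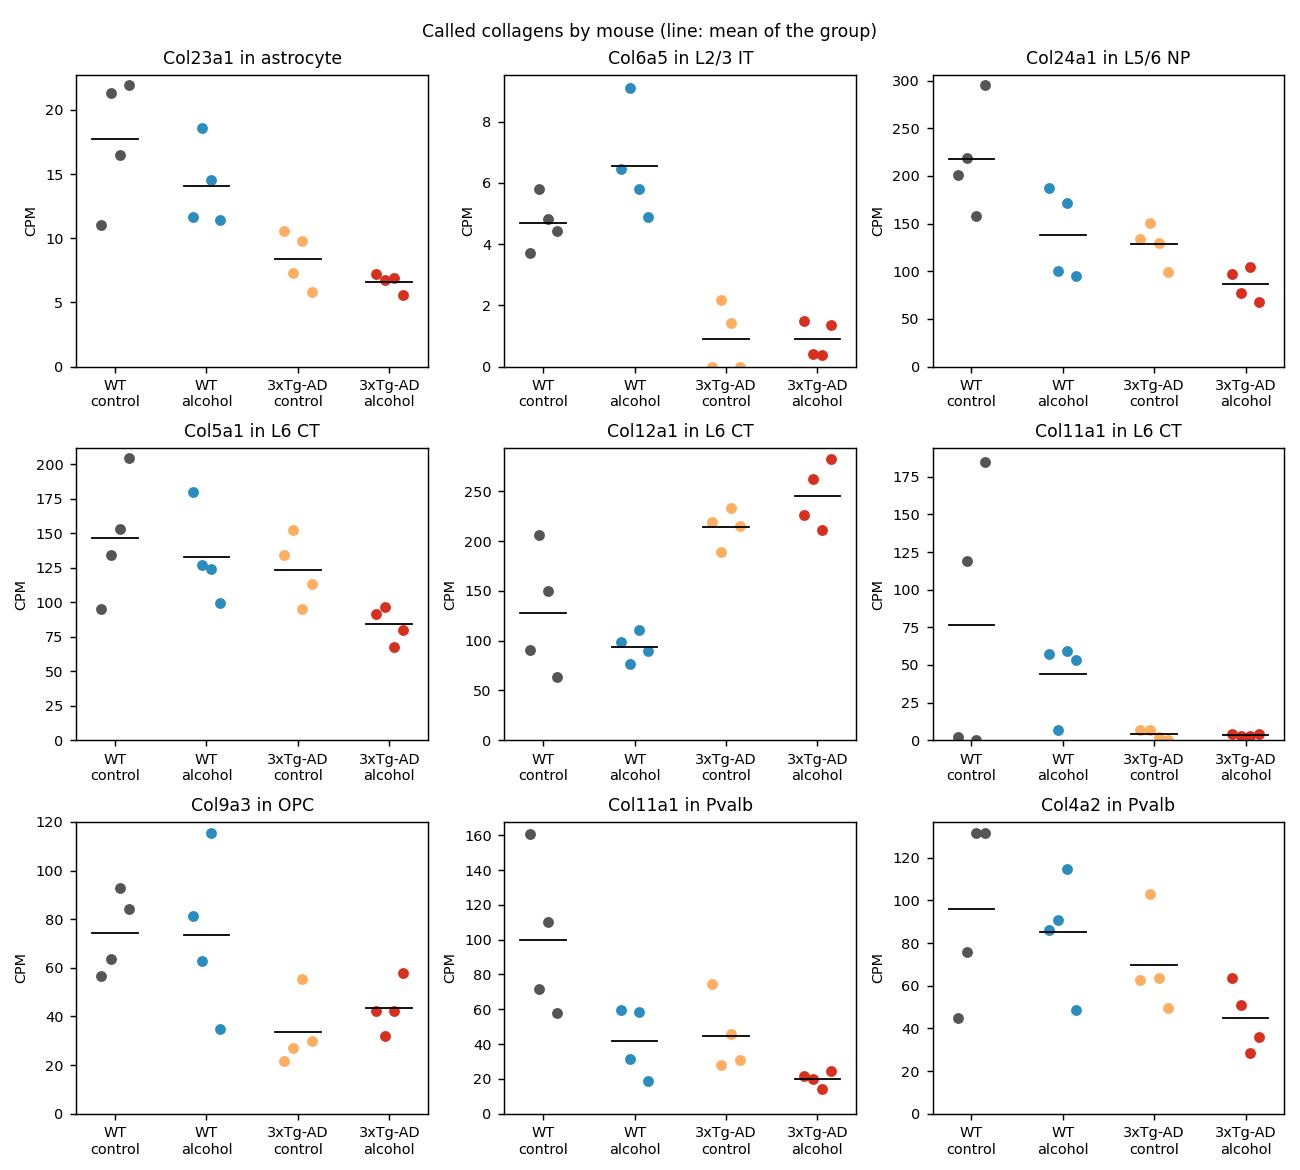
Level (CPM) in each of the 16 mice, by group, of the 9 gene and class pairs that were called in at least 1 contrast. Points are mice and the line is the mean of the 4 mice. The 4 values of Col24a1 in L5/6 NP neurons of exposed 3xTg-AD mice lie below all 4 WT controls, and Col6a5 in L2/3 IT neurons is lower in all 8 3xTg-AD mice than in all 8 WT mice.

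Col24a1 (chromosome 3, 145292472 to 145552013) fell in its own class, the L5/6 NP neurons. It stood at 201, 219, 158 and 295 CPM in the WT controls and at 187, 100.1, 172 and 95.03 CPM in the exposed WT mice. The 3xTg-AD controls gave 134, 151, 130.2 and 99.2 CPM and the exposed 3xTg-AD mice 97.1, 77.04, 104 and 68.1 CPM. All 8 3xTg-AD mice lay below all 4 WT controls, while the exposed WT mice overlapped every other group. The log2 fold change against WT controls was -1.38 ± 0.23 (SE), a 2.60-fold lower level (adjusted p = 0.000139). The call was kept without each mouse in turn (adjusted p up to 0.0150) and in all 8 other settings. Markers of L6b, the class with the next level of Col24a1, summed to 52.7 to 94.7 CPM in L5/6 NP neurons of WT controls and to 94.3 to 208 CPM in those of exposed 3xTg-AD mice. Their part in the result was not tested.

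Col5a1 (chromosome 2, 27886381 to 28039510) fell in L6 CT neurons, where it is highest. Its values were 94.9, 134, 153 and 205 CPM in WT controls and 179.9, 127, 124 and 99.5 CPM in exposed WT mice. They were 134, 152, 95.03 and 113 CPM in 3xTg-AD controls and 91.4, 96.3, 67.7 and 80.2 CPM in exposed 3xTg-AD mice. The lowest WT control lay just under the highest exposed 3xTg-AD mouse, and the rest of these 2 groups did not overlap. This was a log2 fold change of -0.84 ± 0.18 (edgeR, adjusted p = 0.00757). It was not called without WT control mouse 36 (adjusted p = 0.0713), which had the highest level, nor with classes from marker UMIs (0.154).

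Col11a1 (chromosome 3, 114030479 to 114220756) fell in Pvalb interneurons, the fast-spiking basket and chandelier cells. WT controls gave 161, 71.5, 110.3 and 58.02 CPM and exposed WT mice 59.7, 31.5, 58.2 and 18.6 CPM. 3xTg-AD controls gave 74.5, 28.04, 45.9 and 30.97 CPM and exposed 3xTg-AD mice 21.9, 20.02, 14.1 and 24.8 CPM. The exposed 3xTg-AD mice lay below every WT control without overlap. A log2 fold change of -2.37 ± 0.44 corresponded to a 5.17-fold lower level (edgeR, adjusted p = 0.0109). Without exposed 3xTg-AD mouse 33 the adjusted p was 0.0575, and with classes from marker UMIs it was 0.101. With the Gm42418 share as covariate the log2 fold change was -1.55 and the call was kept. L6b markers, of the class with the highest mean of Col11a1, summed to 64.2 to 86.1 CPM in Pvalb interneurons of WT controls and 82.3 to 158 CPM in those of exposed 3xTg-AD mice, and their part in the result was not tested.

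Col4a2 (chromosome 8, 11312805 to 11449287) fell in the same interneurons. Its levels were 44.95, 75.7, 132 and 132 CPM in WT controls and 85.9, 91.1, 115 and 48.4 CPM in exposed WT mice, and then 62.6, 103, 63.5 and 49.5 CPM in 3xTg-AD controls and 63.5, 51.2, 28.3 and 35.8 CPM in exposed 3xTg-AD mice. The groups overlapped, since WT control mouse 26 lay below 2 of the exposed 3xTg-AD mice. The fitted log2 fold change was -1.12 ± 0.29 (edgeR, adjusted p = 0.0379). The call rested on many mice, and it was lost without any 1 of WT control mice 27, 28 and 36, 3xTg-AD control mouse 12 and exposed 3xTg-AD mice 31, 33 and 34 (adjusted p 0.0513 to 0.170). DESeq2 and classes from marker UMIs did not call it either (adjusted p up to 0.743), and the latter gave a log2 fold change of -0.26, against -1.68 with the Gm42418 share as covariate.

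Col6a5 (chromosome 9, 105856070 to 105962463) fell in L2/3 IT neurons at a low level. WT controls had 3.70, 5.81, 4.83 and 4.42 CPM and exposed WT mice 6.44, 9.08, 5.81 and 4.87 CPM. 3xTg-AD controls had 0, 2.18, 1.42 and 0 CPM and exposed 3xTg-AD mice 1.48, 0.423, 0.370 and 1.37 CPM. All 8 3xTg-AD mice lay below all 8 WT mice, on 7 to 16 UMIs per WT mouse and 0 to 4 per 3xTg-AD mouse. Over all nuclei the gene had UMIs in each of the 16 mice. In L2/3 IT neurons it passed the filter of edgeR only through WT mice, where it is higher. Its entry into the tests of every contrast was thus not independent of the difference. Against WT controls the log2 fold change was -2.36 ± 0.55 (edgeR, adjusted p = 0.0180). This call was lost without exposed 3xTg-AD mouse 31 or 33 (adjusted p 0.0631 to 0.0882) and without the 3 mice high in Gm42418 (0.0666).

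Exposed 3xTg-AD mice were next compared with exposed WT mice, which asks for the effect of the line after a history of alcohol exposure. Here 2 of the 101 collagen tests were called, 1 higher and 1 lower, against 0.378% of all tests (218 higher and 208 lower), and DESeq2 called 2. The median log2 fold change was -0.09 over the collagen tests and 0.00012 over all tests, and it ran from -0.17 without exposed WT mouse 18 to -0.0038 without exposed WT mouse 17. Its sign turned with classes from marker UMIs (0.016) and without nuclei with markers of another broad class (0.016). Col6a5 in L2/3 IT neurons fell by the values above, with a log2 fold change of -2.77 ± 0.51 (edgeR, adjusted p = 0.00520), and the call was kept without each mouse in turn.

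Col12a1 (chromosome 9, 79598987 to 79721141) rose in L6 CT neurons, against the direction of the other called collagens. It stood at 90.1, 206, 150.0 and 63.5 CPM in WT controls and 99.02, 76.9, 110.3 and 89.1 CPM in exposed WT mice. The 3xTg-AD controls were at 219, 189, 233 and 215 CPM and the exposed 3xTg-AD mice at 226, 262, 211 and 283 CPM. The 8 3xTg-AD mice lay above all WT mice except WT control mouse 27, which exceeded 1 of them. Against exposed WT mice the log2 fold change was 1.38 ± 0.26, a 2.61-fold higher level (edgeR, adjusted p = 0.0186), and against WT controls it was 1.02 ± 0.26 (adjusted p = 0.0698). The call against exposed WT mice was lost without any 1 of exposed WT mice 6, 7 and 18 and exposed 3xTg-AD mice 31 and 34 (adjusted p 0.0547 to 0.0899). Markers of L5/6 NP neurons, the other class high in Col12a1, summed to 60.1 to 180 CPM in the L6 CT neurons of WT controls, 130 to 226 CPM in exposed WT mice, 117 to 164 CPM in 3xTg-AD controls and 139 to 189 CPM in exposed 3xTg-AD mice. These ranges overlapped, and the part of such nuclei in the result was not tested.

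**Figure D5:**
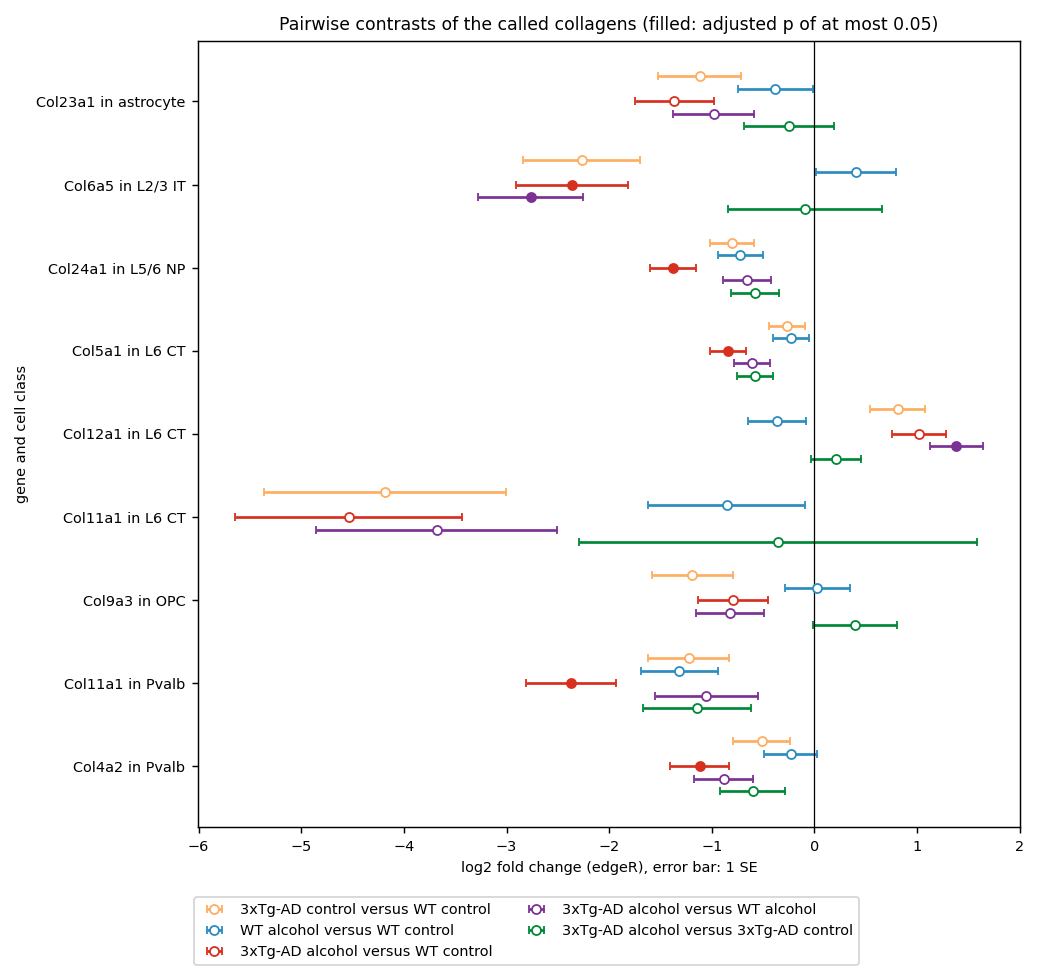
Log2 fold change (edgeR, error bar 1 SE) of the 9 called gene and class pairs in 5 pairwise contrasts of the 4 groups, with filled points for an adjusted p of at most 0.05. Points left of 0 are lower in the group named before versus. Only Col12a1 in L6 CT neurons lies right of 0 in the 3 contrasts that set 3xTg-AD mice against WT mice, and the SE of Col11a1 in L6 CT neurons is the widest.

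Averaged over exposure, the 8 3xTg-AD mice were set against the 8 WT mice, which compares the lines over all 16 mice. Alcohol was not averaged over the lines in this way, and exposed mice were compared with controls only between groups of 4. The numbers of calls for genotype and for alcohol are therefore not a like comparison. Of the 101 collagen tests, 6 were called, 1 higher and 5 lower, against 0.972% of all tests (530 higher and 565 lower), and DESeq2 called 4. Among those lower, Col6a5, Col9a3, Col11a1 in L6 CT and Col23a1 entered the tests through WT mice, where they are higher. The direction of these calls is thus partly given by the filter. The median log2 fold change was -0.05 over the collagen tests and -0.0015 over all tests, and without 1 mouse it ran from -0.12 (exposed WT mouse 18) to 0.0040 (WT control mouse 36), so its sign depended on single mice. For Col6a5 in L2/3 IT the log2 fold change was -2.52 ± 0.38 (edgeR, adjusted p = 0.000249) and for Col12a1 in L6 CT 1.10 ± 0.19 (edgeR, adjusted p = 0.00449), and both calls were kept without each mouse in turn. Col24a1 in L5/6 NP neurons had a log2 fold change of -0.73 ± 0.16 (edgeR, adjusted p = 0.00554), which was not called without WT control mouse 36 (0.0663) or with classes from marker UMIs (0.140).

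The other 3 calls of this contrast were near the threshold. Col9a3, a chain of type IX collagen, stood in OPCs at 56.8, 63.7, 92.98 and 84.1 CPM in WT controls and 81.3, 62.7, 115 and 34.7 CPM in exposed WT mice. It stood at 21.8, 27.01, 55.4 and 29.97 CPM in 3xTg-AD controls and 42.3, 31.9, 42.2 and 57.7 CPM in exposed 3xTg-AD mice, and the 2 genotypes overlapped. In OPCs Col9a3 passed the filter of edgeR through WT mice, where it is higher, and too few 3xTg-AD mice reached its cutoff. Its entry into the test was thus not independent of the difference. Between genotypes the log2 fold change was -1.01 ± 0.26 (edgeR, adjusted p = 0.0460). It was lost without any 1 of exposed WT mice 6 and 17, WT control mice 28 and 36, 3xTg-AD control mice 12, 13 and 21 and exposed 3xTg-AD mice 31 and 33 (adjusted p 0.0551 to 0.323), and in 4 of the other settings, with DESeq2 and without the 3 mice high in Gm42418 among them.

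Col11a1 in L6 CT neurons varied widely among WT mice. WT controls gave 2.40, 119, 0 and 185 CPM and exposed WT mice 57.2, 6.79, 59.1 and 53.2 CPM, so 5 of the 8 WT mice were high and 3 near 0. All 8 3xTg-AD mice were low, with 6.60, 6.74, 2.16 and 0 CPM in controls and 4.39, 2.43, 2.60 and 4.36 CPM in exposed mice, and the 3 low WT mice fell within that range or next to it. Here Col11a1 passed the filter of edgeR only through WT mice, so its entry into the test was not independent of the difference. In L6 CT the log2 fold change was -3.93 ± 0.83 (edgeR, adjusted p = 0.0473), and the call was kept only without WT control mouse 26 or 28 or exposed WT mouse 7, while leaving out any other mouse gave an adjusted p of 0.0672 to 0.122, and leaving out nuclei with markers of another broad class gave 0.0746. L6b markers summed to 6.50 to 42.1 CPM in L6 CT neurons of WT controls and to 22.9 to 43.0 CPM in the other 3 groups, and their part in the result was not tested.

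Col23a1 in astrocytes stood at 11.03, 21.4, 16.5 and 21.9 CPM in WT controls and 11.6, 18.6, 14.6 and 11.4 CPM in exposed WT mice. It stood at 10.6, 7.26, 9.81 and 5.79 CPM in 3xTg-AD controls and 7.23, 6.77, 6.87 and 5.59 CPM in exposed 3xTg-AD mice. All 8 3xTg-AD mice lay below all 8 WT mice, on 4 to 16 UMIs per mouse. Their log2 fold change was -1.05 ± 0.28 (edgeR, adjusted p = 0.0499), and it was called only without WT control mouse 26 or 3xTg-AD control mouse 12, with an adjusted p of 0.0595 to 0.133 without any other mouse. Of the other settings, 5 lost the call, DESeq2 and no filter on low counts among them, and classes from marker UMIs gave a log2 fold change of -0.42. In astrocytes Col23a1 passed the filter of edgeR only through WT mice, where it is higher. Its entry into the test was thus not independent of the difference.

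In the remaining 4 contrasts (3xTg-AD controls or exposed WT mice against WT controls, alcohol within the 3xTg-AD line and the interaction) edgeR called no collagen. For 3xTg-AD controls against WT controls, edgeR called 0 of 101 (0.175% of all tests were called) and DESeq2 0, with 18 at an unadjusted p under 0.05 (6.32% of all tests) and a median log2 fold change of -0.11 against -0.0018 over all tests. That median was -0.03 without WT control mouse 36, -0.06 without 3xTg-AD control mouse 13 and -0.02 without 3xTg-AD control mouse 21. The smallest adjusted p was that of Col6a5 in L2/3 IT neurons, with a log2 fold change of -2.27 ± 0.57 (edgeR, adjusted p = 0.0846). For exposed WT mice against WT controls, edgeR and DESeq2 again called 0 of 101 (0.0328% of all tests were called by edgeR), with 20 at an unadjusted p under 0.05 (8.99% of all tests) and a median of -0.23 against -0.0056 over all tests. It was -0.199 without WT control mouse 36 and -0.14 without exposed WT mouse 18.

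The test nearest to a call in that contrast was Col16a1, a FACIT, in L6 CT neurons. It stood at 39.6, 38.996, 47.2 and 66.4 CPM in WT controls and 18.1, 15.8, 30.8 and 24.3 CPM in exposed WT mice, which did not overlap. 3xTg-AD controls were at 11.7, 53.9, 32.4 and 38.2 CPM and exposed 3xTg-AD mice at 37.8, 28.3, 24.7 and 36.001 CPM. The log2 fold change between the WT groups was -1.09 ± 0.29 (edgeR, adjusted p = 0.188).

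Within the 3xTg-AD line, exposed mice and controls gave 0 calls of 101 by edgeR (0.159% of all tests were called) and 0 by DESeq2, with 16 at an unadjusted p under 0.05 (8.31% of all tests) and a median of -0.17 against 0.0025 over all tests, which became -0.26 without exposed 3xTg-AD mouse 4. The smallest adjusted p was that of Col4a1 in L2/3 IT neurons. Its levels were 92.6, 62.7, 81.3 and 53.5 CPM in 3xTg-AD controls and 50.9, 51.98, 43.7 and 39.7 CPM in exposed 3xTg-AD mice, without overlap, and 60.1, 65.8, 58.01 and 75.8 CPM in WT controls and 63.5, 48.2, 41.6 and 30.04 CPM in exposed WT mice. The log2 fold change of alcohol was -0.59 ± 0.18 in 3xTg-AD mice (edgeR, adjusted p = 0.147) and -0.58 ± 0.18 in WT mice (edgeR, adjusted p = 0.301). Markers of endothelial cells, where Col4a1 is highest, summed to 5.81 to 16.9 CPM in L2/3 IT neurons over all 16 mice, and their part in these values was not tested.

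The interaction, which asks whether alcohol acts differently in the 2 genotypes, gave 0 calls of 101 by edgeR (0.00355% of all tests were called) and 0 by DESeq2, with 9 at an unadjusted p under 0.05 (4.26% of all tests) and a median of 0.12 against 0.0050 over all tests. The median was -0.05 without WT control mouse 36, 0.0039 without exposed WT mouse 18 and 0.18 without exposed WT mouse 17. The smallest adjusted p was that of Col16a1 in OPCs, at a difference of 0.51 ± 0.46 on the log2 scale (edgeR, adjusted p = 0.953). Adjustment was made within each class, so the order by adjusted p can differ from that by unadjusted p. Col16a1 in OPCs was not among the 9 tests with an unadjusted p under 0.05. An effect of alcohol on a collagen was therefore not shown to differ between WT and 3xTg-AD mice. For Col24a1 in L5/6 NP neurons, the alcohol effect was -0.72 ± 0.22 in WT mice and -0.58 ± 0.23 in 3xTg-AD mice, and the difference between them was 0.15 ± 0.32 (edgeR, adjusted p = 0.999).

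The genes that make, bind and degrade collagen were followed through 5 lists of 73 genes, of which 71 were in the table and 54 were tested in 308 gene and class pairs. Against WT controls, edgeR called none of the 308 pairs in exposed 3xTg-AD mice, 3xTg-AD controls or exposed WT mice, where 1.09%, 0.175% and 0.0328% of all tests were called. An unadjusted p under 0.05 was found in 53, 25 and 43 of them, and DESeq2 called 3, 1 and 1. In the folding and modification list (17 genes tested in 135 pairs), the genotype contrast called 1 pair higher and 1 lower, where 0.972% of all tests were called, so the count is near that background. Colgalt2, which glycosylates collagen, rose in astrocytes by 0.90 ± 0.22 (edgeR, adjusted p = 0.0237), and Ppib, a prolyl isomerase of collagen folding, fell in L2/3 IT neurons by 0.39 on the log2 scale (edgeR, adjusted p = 0.0122). The Ppib call was kept without each mouse in turn, while that of Colgalt2 was lost without 7 of the 16 (WT control mice 26, 28 and 36, exposed WT mice 6 and 18, 3xTg-AD control mouse 13 and exposed 3xTg-AD mouse 33, adjusted p 0.0534 to 0.109). The Ppib call was lost with classes from marker UMIs (adjusted p = 0.153), and that of Colgalt2 without nuclei with markers of another broad class (0.354), while the log2 fold change of Colgalt2 was 1.38 without the 3 mice high in Gm42418.

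Among the receptors (9 genes tested in 41 pairs), Itga10, an integrin chain that binds collagen, was called in L5 ET neurons, as 1 of 41 pairs in each of 2 contrasts where 0.378% and 0.972% of all tests were called. Its mean level there was 12.5 CPM in WT controls, 4.32 CPM in exposed WT mice, 18.7 CPM in 3xTg-AD controls and 19.6 CPM in exposed 3xTg-AD mice. The exposed WT mice were thus the low group. It was higher in exposed 3xTg-AD mice than in exposed WT mice by 2.17 ± 0.45 on the log2 scale (edgeR, adjusted p = 0.0228) and by 1.39 ± 0.30 in the genotype contrast (edgeR, adjusted p = 0.0183). The first of these calls was lost without exposed WT mouse 6, 7 or 18 or exposed 3xTg-AD mouse 31 (adjusted p 0.0732 to 0.157), and the second with classes from marker UMIs (0.130). In the processing and crosslinking list (11 genes tested in 27 pairs), Sparc, a collagen-binding matricellular protein, was called in astrocytes, where it stood at 12.3, 15.97, 9.81 and 17.4 CPM in 3xTg-AD controls and 26.8, 35.8, 28.3 and 36.3 CPM in exposed 3xTg-AD mice, without overlap. This was 1 of 27 pairs, where 0.159% of all tests were called. It rose by 1.20 ± 0.27 on the log2 scale (edgeR, adjusted p = 0.0213), and the call was lost without 3xTg-AD control mouse 13 or 14 or exposed 3xTg-AD mouse 31 or 34 (adjusted p 0.0510 to 0.0860), with DESeq2 and with the Gm42418 share as covariate (up to 0.0984). None of the 36 pairs of basement membrane partners, such as laminins and nidogens, was called by edgeR in any of the 7 contrasts. Of these pairs, 2 to 12 per contrast had an unadjusted p under 0.05, and DESeq2 called 1, within the 3xTg-AD line.

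In the degradation list (8 genes tested in 69 pairs), the exposed groups differed in 9 called pairs of 2 genes, Timp4 and Mmp15, where 0.378% of all tests were called. Timp4, which encodes an inhibitor of matrix metalloproteinases, fell in 8 of the 15 classes where it was tested in exposed 3xTg-AD mice against exposed WT mice, namely astrocytes, OPCs and L2/3 IT, L5/6 NP, L6 IT, Sncg, Sst and Vip neurons. In Sst interneurons it stood at 481, 406, 291 and 459 CPM in exposed WT mice and 112, 188, 145 and 159 CPM in exposed 3xTg-AD mice, without overlap. It stood at 306, 149, 372 and 212 CPM in WT controls and 260.1, 280.5, 195 and 399 CPM in 3xTg-AD controls. The log2 fold change between exposed groups ran from -0.77 ± 0.17 in astrocytes to -1.79 ± 0.30 in L5/6 NP neurons, with adjusted p from 2.08e-05 in Sst to 0.0271 in OPCs (edgeR). The calls in L6 IT, Sncg and Sst were kept without each mouse in turn. Those in L2/3 IT and L5/6 NP were lost without exposed 3xTg-AD mouse 31 (adjusted p = 0.0650 and 0.0797), those in astrocytes without exposed WT mouse 6 or 18 or exposed 3xTg-AD mouse 4, 31 or 33 (0.0555 to 0.125), those in OPCs without exposed WT mouse 6, 7 or 18 or exposed 3xTg-AD mouse 4, 31 or 34 (0.0665 to 0.224), and those in Vip without exposed WT mouse 6 or 7 or exposed 3xTg-AD mouse 4 or 33 (0.0602 to 0.154). With classes from marker UMIs the calls in astrocytes, L5/6 NP and Vip were lost, without nuclei with markers of another broad class those in astrocytes, OPCs and Vip, and with DESeq2 those in OPCs and Vip (adjusted p up to 0.122 in astrocytes, 0.214 in L5/6 NP, 0.279 in Vip and 0.613 in OPCs). Timp4 also fell in L6 IT neurons of exposed 3xTg-AD mice against 3xTg-AD controls, by 1.27 ± 0.24 on the log2 scale (edgeR, adjusted p = 0.0435), a call lost without any 1 of 8 mice (12, 13, 18, 21, 26, 31, 33 and 34, adjusted p 0.0570 to 0.196), with the Gm42418 share as covariate, without the 3 mice high in it and with classes from marker UMIs (up to 0.291). In the genotype contrast it fell in Sst interneurons by 0.69 and in L5/6 NP neurons by 0.99 on the log2 scale (edgeR, adjusted p = 0.00989 and 0.0209), and the latter call was lost without any 1 of mice 6, 12, 13, 26, 31 and 36 (0.0549 to 0.138). Both of these calls were lost with classes from marker UMIs (0.134 in Sst and 0.451 in L5/6 NP), and that in L5/6 NP also without nuclei with markers of another broad class. Mmp15, a membrane-bound metalloproteinase, rose in OPCs of exposed 3xTg-AD mice against exposed WT mice by 1.22 ± 0.26 on the log2 scale (edgeR, adjusted p = 0.0153), which was lost without exposed WT mouse 6 or 18 or exposed 3xTg-AD mouse 31, 33 or 34 (adjusted p 0.0592 to 0.124) and with classes from marker UMIs (0.253).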

How the data were processed

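Single-nucleus RNA-Seq (10x Genomics 3′ v3.1) was performed by the authors on the medial PFC of 16 mice, 4 per group, with group and mouse number taken from the labels. The authors aligned reads to mm10 with Cell Ranger 6.1.1, which uses STAR, and deposited 1 table of raw UMI counts, with 19999 genes and 4955 to 9096 nuclei per mouse. The deposited counts were filtered and not normalized. No per-sample column was left unused.

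Nuclei were normalized to 10000 UMIs and clustered without collagen genes (scanpy 1.11.5, 2000 variable genes, 30 principal components, 20 neighbors, Leiden resolution 1.5, and 2 within glutamatergic nuclei). A class name was given to clusters with at least 3 of its markers raised 1.5-fold and no fewer than 50 nuclei. No doublet caller was run. An alternative left out nuclei with at least 2 markers of another broad class. Since names were rebuilt from markers, classes may differ from those of the study.

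Counts were summed per mouse and class where a mouse had at least 10 nuclei, and a class was tested with at least 3 mice per group (17 classes). All genes of a class were fitted over the 4 groups with edgeR 4.0.16 (R 4.3.3, TMM, filterByExpr, robust quasi-likelihood test), with Benjamini-Hochberg adjustment per class and contrast and a threshold of 0.05. CPM levels use raw class totals. The alternatives were DESeq2 1.42.0, RLE scaling, no filter on low counts, the Gm42418 share as covariate, 3 mice left out, each mouse left out, stricter nuclei and classes from marker UMIs.

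The collagens, the pathway lists and the tests were chosen with earlier results of these data known. All 44 collagens were described by class. The rule gave values per mouse or group to each collagen called in a contrast, up to 3 collagens per class among those highest there and, per contrast without a call, the collagen with the smallest adjusted p. The other genes named in contrasts came from fixed pathway lists. Depth ran from 9622031 to 17544364 UMIs per mouse, and the counting intervals and 0 values cover counting error only. Promoter windows were read from RefSeq (GRCm38.p6). The full set of alleles of the 3xTg-AD line is not reported here.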

Additional observations from a re-analysis of the deposited data

Results flagged for a closer look

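Col11a1 in L6 CT neurons was uneven among the exposed WT mice, where mouse 7 stood at 6.79 CPM, against 53.2 to 59.1 CPM in the other 3 mice. Its gap to the nearest mouse was 0.889 of the range of the group, above Dixon's 95% critical value for 4 samples, which chance alone passes in about 1 in 20 groups. The check was run in every group of each collagen pair called or nearest to a call, and of Sparc in astrocytes and Timp4 in Sst. No other group passed it.

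The effect of alcohol on Sparc in astrocytes differed between genotypes by 1.91 ± 0.39 on the log2 scale (3xTg-AD minus WT, edgeR, adjusted p = 0.0485). In WT mice the mean level was 27.7 CPM in controls and 17.8 CPM after exposure, and it went from 13.9 to 31.8 CPM in 3xTg-AD mice. The call was kept only without 2 of the 16 mice (exposed 3xTg-AD mouse 4 and WT control mouse 26), and leaving out any other mouse gave an adjusted p of 0.0543 to 0.551. It was also lost in 5 of 7 other settings, namely DESeq2, no filter on low counts, without the 3 mice high in Gm42418, stricter nuclei and classes from marker UMIs (adjusted p up to 0.973), the last of which gave a difference of 1.09.

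The effect of alcohol on Timp4 in Sst interneurons differed between genotypes by -1.50 ± 0.31 on the log2 scale (edgeR, adjusted p = 0.0453). The mean level went from 259.8 to 409 CPM in WT mice and from 283 to 151 CPM in 3xTg-AD mice. The call was kept without 4 of the 16 mice (WT control mice 26 and 28, exposed WT mouse 17 and 3xTg-AD control mouse 14), and leaving out any of the other 12 gave an adjusted p of 0.0767 to 0.336. It was also lost in 4 of 8 other settings, namely DESeq2, the Gm42418 share as covariate, without the 3 mice high in Gm42418 and classes from marker UMIs (adjusted p up to 0.990).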

How the results depend on the processing

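None of the 13 called collagen log2 fold changes reversed in an alternative that was run for them, and of these values 235 repeats stayed on their side of the threshold and 69 lost the call. Among the called pathway genes these were 347 and 106. The number of collagen tests called for exposed 3xTg-AD mice against WT controls was 9 with no filter on low counts, 8 with the Gm42418 share as covariate and 3 with classes from marker UMIs, against 5. For 3xTg-AD controls against WT controls, where none was called, the count was 4 with no filter, 2 without the 3 mice high in Gm42418 and 1 without nuclei with markers of another broad class. For exposed WT mice against WT controls it was 2 with no filter and 1 each with the covariate, without the 3 mice, with classes from marker UMIs and without the nuclei with other markers. Within the 3xTg-AD line it was 1 with the covariate. Between the exposed groups it was 7 with no filter, 6 with the covariate, 7 without the 3 mice and 1 without the nuclei with other markers, against 2. For the genotype contrast it was 14 with no filter and 3 without the nuclei with other markers, against 6. These counts rest on unlike numbers of collagen tests per contrast. There were 665 with no filter, 139 with classes from marker UMIs, 118 without the 3 mice and 66 without the nuclei with other markers, against 101. A higher count in these settings is thus not a higher share, and the share of all tests called in each is not given here. The cause of the other changes was not tested. Leaving out each mouse in turn gave 2 to 7 calls in the first of these contrasts (2 without exposed 3xTg-AD mouse 33), 0 to 1 in the second (1 without WT control mouse 27, 28 or 36), 0 to 2 in the third (2 without WT control 36, 1 without 3xTg-AD control 12), 0 to 0 in the fourth, 1 to 2 in the fifth (1 without exposed WT mouse 7 or 18 or exposed 3xTg-AD mouse 31 or 34), 3 to 10 in the genotype contrast (10 without WT control mouse 26, and 3 without mice 17, 21, 31, 33 or 36) and 0 to 0 in the interaction. The highest class was the same for 25 of 44 collagens without nuclei with markers of another broad class. The fit of VLMCs without the 3 mice high in Gm42418 was not run, because it left 1 WT control. No paired analysis was possible because the groups share no replicate numbers. Sparse classes limit the tests, since 19 of the 44 collagens had too few UMIs in every class.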

Other observations

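Among the genes that process collagen, Pcolce, which enhances the cleavage of procollagen, and the small proteoglycans Fmod, Dcn and Lum were highest in VLMCs, as was Serpinh1, the collagen chaperone. Dcn and Lum are also markers by which that class was named. Of the 10 receptors, 4 were also highest in VLMCs, namely Mrc2 (178 CPM), Ddr2 (124 CPM), Itga10 (59.5 CPM) and Itga11 (15.2 CPM), while Itga1 was highest in pericytes and mural cells at 355 CPM and Lair1 in microglia-PVM at 292 CPM. Timp4 was highest in Lamp5 (398 CPM) and Sncg interneurons (397 CPM), and Mmp16 was highest in L6b (439.5 CPM). These levels were not tested.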
